A study of Schizosaccharomyces pombe with 3 samples.

Results

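Small nucleolar RNA (snoRNA) genes of the fission yeast Schizosaccharomyces pombe were followed through chromatin immunoprecipitation sequencing (ChIP-seq) of RNA polymerase II (Pol II) and of Med7. The members were all genes with the biotype snoRNA on the nuclear chromosomes of the RefSeq annotation of assembly ASM294v3, 66 of 12606 nuclear genes. Of these, 36 lie on chromosome I, 25 on chromosome II and 5 on chromosome III. A member was placed within a longer transcript when a longer transcript of another gene on the same strand holds at least 90% of it, which gave 27 genes, and the other 39 were called free-standing. Of the 27, 12 sit in introns of protein-coding genes and 15 in longer non-coding transcripts. The 39 free-standing entries include 7 that the annotation names snoRNA primary transcripts, each of which is the precursor of 1 or more of the 15.

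All 3 libraries came from log-phase cells of strain 972 h- grown in YEA medium with 2% glucose, without further treatment. For the control, chromatin of untagged cells was put on beads without any antibody. For Pol II, chromatin of untagged cells was precipitated with 4H8, an antibody to the repeated C-terminal domain of the largest Pol II subunit, on Protein G beads. For Med7, cells carrying TAP-tagged Med7 were used with IgG beads. Neither TAP tag nor IgG was present in the control, so tag, beads and Med7 cannot be told apart in that comparison. Each group has 1 library, no difference has a replicate check, and no p-value is given.

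SnoRNAs act in the nucleolus as guides within small ribonucleoprotein particles (snoRNPs). Box C/D snoRNAs carry fibrillarin, which methylates ribose in ribosomal RNA, and box H/ACA snoRNAs carry the pseudouridine synthase Cbf5 (dyskerin in humans). U3, U14 and U17 (snR30 in yeasts) act in cleavage of the ribosomal RNA precursor. In yeasts many snoRNAs are made from their own Pol II genes, with the general factors that serve messenger RNA genes, and others are cut out of introns or of precursors that hold several snoRNAs. Mediator, of which Med7 is a subunit of the middle module, links promoter-bound factors to Pol II.

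The sequences of members from both box families are shown because the results below turn on them (RefSeq, assembly ASM294v3, 5′ to 3′). Capitals mark box C (TGATGA) and box D (CTGA) in snoZ16 and snoU14, and the ACA of the 3′ end in snR92. snoZ16, with the highest Pol II fold among the 38 free-standing gene windows counted, lies at chrI:1234963-1235045 on the plus strand. snoU14, the U14 gene, lies at chrII:1308634-1308745 on the plus strand. snR92 (chrII:2121215-2121358, plus strand) was among the H/ACA genes with the highest Pol II fold.
snoZ16: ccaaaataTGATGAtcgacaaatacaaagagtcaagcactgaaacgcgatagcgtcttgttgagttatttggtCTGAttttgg
snoU14: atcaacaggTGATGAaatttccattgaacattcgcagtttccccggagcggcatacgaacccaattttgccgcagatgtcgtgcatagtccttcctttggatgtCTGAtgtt
snR92: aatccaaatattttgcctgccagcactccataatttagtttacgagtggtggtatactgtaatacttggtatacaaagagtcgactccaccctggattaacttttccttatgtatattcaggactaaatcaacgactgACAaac

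Folds are ratios of scaled read numbers (RPM, reads in a window divided by the library total), ChIP over bead control, each with an exact 95% binomial interval. The windows were the gene, the 500 bp before its start and the 500 bp after its end. The totals are nuclear reads outside the ribosomal DNA: 630825 (control), 1687058 (Pol II) and 696101 (Med7). The intervals cover counting error only, since reads amplified by PCR and carrying no molecular identifier may stem from 1 molecule. High means a fold of at least 2 whose interval lies above 1, and low means a fold of at most 0.5 whose interval lies below 1. The gene windows are short, with a median of 112 bp and 8 control reads over all members, so their intervals are wide. The precipitated fragments carry no strand of transcription, and reads of a member cannot be told apart from those of a gene that overlaps it. Over the windows of all genes the Pol II fold had a median of 0.715 in the gene, so a fold near 1 lies above the typical gene; scaling by the median 1 kb bin in place of the read total raises every Pol II log2 fold by 0.49.

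Pol II reads were above the control over most free-standing snoRNA genes. Pooled over 38 gene windows, the 3 libraries held 572 control, 3052 Pol II and 679 Med7 reads, and the Pol II fold was 2.00 (1.82 to 2.19). The point fold lay above 1 in 31 of 38 windows (81.6%), against 23.4% of all genes, and had a median of 1.81. The interval lay above 1 in 19 of the 38. The rule called 16 of 38 high (42.1%) and 1 low, where over all nuclear genes 6.04% were called high and 15.8% low. Protein-coding genes gave a pooled fold of 1.01 and a share of 6.82% high. In windows of 500 bp centred on the gene, which give every gene the same length, 23 of 39 free-standing members were called high (59.0%) and 2 low, against 6.45% and 22.4% of all genes. Med7 showed no such excess over the genes, with a pooled fold of 1.08 (0.961 to 1.20), 0 of 38 called high and 2 called low, where 2.94% of all genes were called high and 2.3% low.

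**Figure D1:**
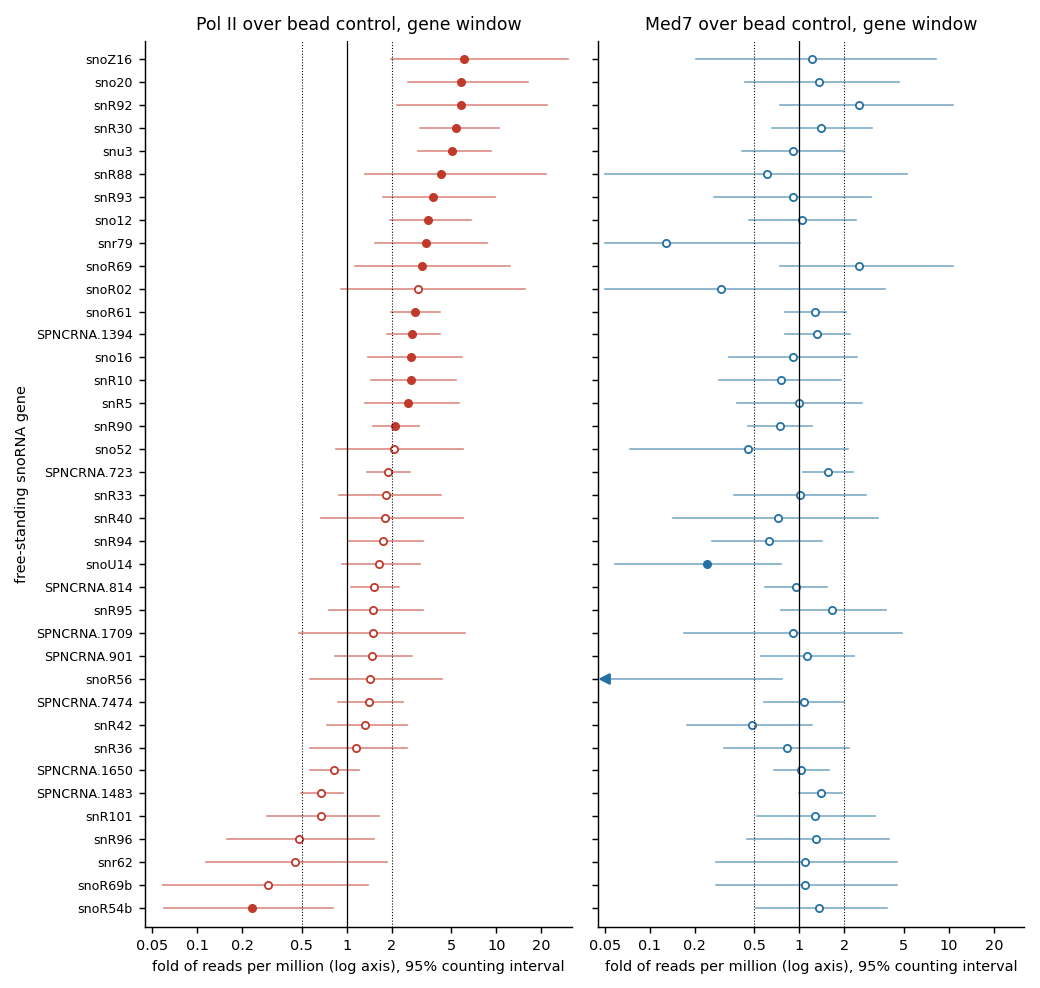
Fold of RPM over the bead control in the gene window of 38 free-standing snoRNA genes, for Pol II (left) and Med7 (right), on log axes. Lines are 95% counting intervals, drawn no lower than 0.05 and no higher than 30, filled points passed the fold rule, dotted lines mark 0.5 and 2, and the triangle marks snoR56, which had 0 Med7 reads. The Pol II points run from 0.234 in snoR54b to 6.11 in snoZ16, with 31 above 1, while the Med7 points lie on both sides of 1.

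Among the free-standing genes classed as box H/ACA, which guide pseudouridylation, 8 of 17 were called high for Pol II over the gene and 1 low, with a pooled fold of 2.32 (1.99 to 2.71). snR30, the U17 gene (chrI:3394875-3395200, plus strand), held 13 control, 188 Pol II and 20 Med7 reads, a Pol II fold of 5.41 (3.09 to 10.3). sno20, the counterpart of snR35, held 6, 93 and 9 reads, a Pol II fold of 5.80 (2.56 to 16.2). snR92 held 4, 62 and 11 reads, a Pol II fold of 5.80 (2.15 to 21.9). In these genes the Pol II library stood far above the control, whereas the Med7 intervals of all 3 included 1. sno20 lies whole within SPBC1921.04C, an uncharacterized protein-coding gene on the opposite strand with a Pol II fold of 4.43 (2.57 to 8.29), so the value belongs to both genes. sno12, the counterpart of snR99, held 13 control, 121 Pol II and 15 Med7 reads, a Pol II fold of 3.48 (1.96 to 6.72). snR93 held 7, 71 and 7 reads, a fold of 3.79 (1.75 to 9.77). The genes snR5 (2.58), snR10 (2.68) and snR90 (2.11) were high by the same rule. snR90 had the most reads of the group, 40 control, 226 Pol II and 33 Med7, with an interval of 1.50 to 3.04; with the positions of coding neighbours left out its fold was 1.95 and not called.

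The 8 free-standing box C/D genes, the family of the methylation guides, gave a pooled Pol II fold of 2.17 (1.61 to 2.98) over the gene, with 3 called high. snoZ16 held 3 control, 49 Pol II and 4 Med7 reads, a Pol II fold of 6.11 (1.97 to 30.6). snr79 held 7, 63 and 1 reads, a Pol II fold of 3.37 (1.54 to 8.71). It lies whole within gpi12, a protein-coding gene on the opposite strand with a Pol II fold of 1.95 that was not called. The 500 bp downstream of snr79 lie in gpi12 too, so the reads of either window cannot be assigned to snr79 alone. snoR69 held 4, 34 and 11 reads, a Pol II fold of 3.18 (1.13 to 12.3). All 3 rest on 7 control reads or fewer, so their folds are known only within wide limits. snoU14 held 15 control, 66 Pol II and 4 Med7 reads over the gene, a Pol II fold of 1.65 (0.929 to 3.10) that was not called, and its Med7 fold of 0.242 (0.0584 to 0.759) was called low, though not with duplicates collapsed (0.343) or in a 500 bp window (0.501). snoR56 held 6 control, 23 Pol II and 0 Med7 reads. Against a floor of 3 Med7 reads in that window its Med7 value was 2.21-fold lower than the control. That figure leaves out the counting error of the 6 control reads. The low call was lost with duplicates collapsed and in a 500 bp window (0.627). Pooled, the 8 box C/D genes held 51 control and 33 Med7 reads, a Med7 fold of 0.586 (0.367 to 0.926).

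Both U3 genes stood high. snu3 (chrI:987570-987825, minus strand) held 15 control, 203 Pol II and 15 Med7 reads over the gene, a Pol II fold of 5.06 (3.00 to 9.21). snu32, annotated as U3B (chrII:3958832-3959086, minus strand), held 19, 335 and 12 reads, a Pol II fold of 6.59 (4.16 to 11.1), but 82.0% of its positions start a unique 45-base sequence, under the 90% required, so it was left out of the counts over gene windows. Its downstream window did qualify and held 46, 583 and 71 reads, a Pol II fold of 4.74 (3.51 to 6.55). The Pol II reads of both genes far outnumbered the control after allowing for depth, and the Med7 reads did not. The annotated intervals of the pair are out of register: the 255 bases of snu32 align to the snu3 locus from 122 bp before the annotated snu3 start to 133 bp after it, with 234 identical bases in 256 columns (91.4%). Over snu3 the Pol II reads rose from 5 to 33 in the 100-bp bin that begins 200 bp before the annotated start. Over snu32 the corresponding step, from 4 to 38, lay in the bin that begins 100 bp before the start. The upstream window of snu3 (15 control, 100 Pol II and 17 Med7 reads, Pol II fold 2.49, 1.44 to 4.62) thus holds sequence that matches the snu32 gene. That window also overlaps SPNCRNA.2435, a non-coding RNA on the opposite strand, and with the positions of other transcripts left out its fold was 0.892. The U3B sequence is shown because it covers the whole stretch that aligns between the loci; capitals mark the CTGA that the search for box D found.
snu32: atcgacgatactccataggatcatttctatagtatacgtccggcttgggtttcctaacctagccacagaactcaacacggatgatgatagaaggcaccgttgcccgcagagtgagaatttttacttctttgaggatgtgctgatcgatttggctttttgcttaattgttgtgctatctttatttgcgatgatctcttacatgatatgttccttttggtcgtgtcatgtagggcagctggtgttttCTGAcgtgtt

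Of the free-standing genes that neither the annotation nor the search for boxes placed in a family, snR88 (3 control, 34 Pol II and 2 Med7 reads, Pol II fold 4.24, 1.33 to 21.6), sno16 (10, 72 and 10 reads, fold 2.69, 1.38 to 5.85) and snoR61 (34, 258 and 48 reads, fold 2.84, 1.98 to 4.19) were also high. The letters searched were exact and were sought only near the ends of the annotated interval. A gene left without a family may therefore still carry a box. The annotated snu3 sequence holds both TGATGA and CTGA, and that of snu32 holds TGATGA, but outside the stretches searched. Both genes were thus left out of the box C/D group. Whether these letters act as boxes was not tested. The annotation gave the family of 19 H/ACA genes and 1 C/D gene, the letters gave that of 17 C/D and 3 H/ACA genes, and 19 genes had none.

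A few free-standing genes did not share the excess. snoR54b (chrI:4238306-4238401, plus strand) held 8 control, 5 Pol II and 12 Med7 reads, a Pol II fold of 0.234 (0.0602 to 0.810), the lowest of the 38. It was low in all 3 windows, with 0.403 (0.228 to 0.715) upstream and 0.312 (0.146 to 0.655) downstream, and 69 bp of its upstream window lie in fio1, an iron transport gene with a Pol II fold of 0.325. Its family assignment, H/ACA, rests on the 3 letters ACA alone, and with scaling by the median 1 kb bin the gene fold was 0.328 and the upstream fold 0.566, neither of them called, and with duplicates collapsed they were at 0.327 and 0.524 and not called. The downstream call was lost with a 250 bp flank (0.374). snoR69b (5 control, 4 Pol II and 6 Med7 reads, Pol II fold 0.299, 0.0594 to 1.39), snr62 (5, 6 and 6 reads, fold 0.449, 0.114 to 1.86) and snR96 (7, 9 and 10 reads, fold 0.481, 0.159 to 1.52) had point values under 0.5, but their intervals included 1. At 5 to 7 control reads a difference from the control was not detectable in these 3.

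Profiles in 100-bp bins used no filter on unique sequence, so that of the 32 free-standing genes without the primary transcripts includes snu32. That gene held 131 of the 1259 Pol II reads from 100 to 199 bp after the start and 222 of the 1140 from 300 to 399 bp. In the 32 genes, the pooled Pol II fold was 0.952 in the 100 bp that begin 1000 bp upstream of the start and 2.56 (2.17 to 3.04) in the last 100 bp before it. It was 2.37 (2.04 to 2.77) in the first 100 bp after the start and 3.25 (2.73 to 3.88) from 100 to 199 bp. Pol II reads hardly differed between these 2 bins, 1243 and 1259, while the control held 196 and 145. Aligned on the annotated end, the highest fold, 3.44 (2.88 to 4.13), lay in the first 100 bp past the end, but there the control held 137 reads, against 189 in the bin before and 185 in the bin after. The Pol II reads themselves were highest in the last 100 bp before the end, 1332 against 1259 past it. The value was 1.12 (0.940 to 1.34) from 400 to 499 bp past the end and 0.856 from 500 to 599 bp, and it was lower still, 0.616 (0.511 to 0.744) from 900 to 999 bp. Med7 gave 1.37 (1.10 to 1.70) in the bin that begins 200 bp upstream, 0.763 (0.616 to 0.943) in the first 100 bp of the gene, 1.41 (1.14 to 1.75) in the next 100 bp and 1.53 (1.23 to 1.90) in the first 100 bp past the end. The control moved the other way, with 196 and 145 reads in the first and next 100 bp of the gene, and the Med7 reads past the end, 231, were as many as in the bin after it, where the fold was 1.13; the part of the control in these values was not tested. In protein-coding genes the highest Pol II value in either alignment was 1.32, in the last 100 bp before the end, and Med7 reached 1.65 in the last 100 bp before the start.

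**Figure D2:**
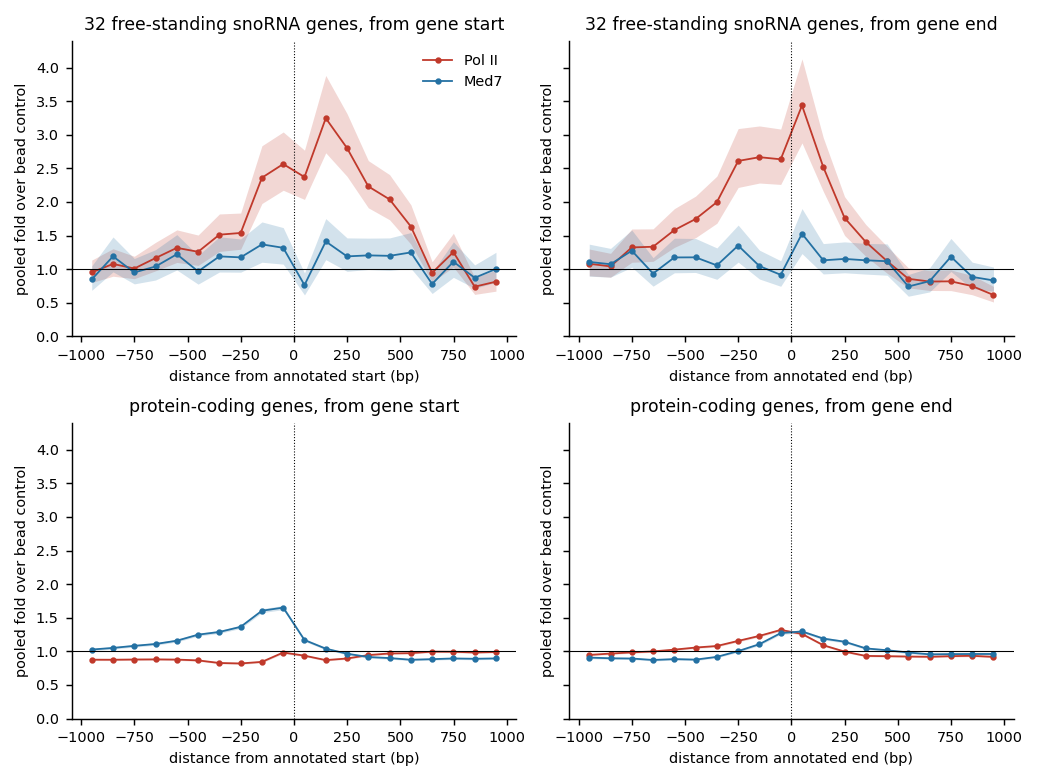
Pooled fold over the bead control in 100-bp bins (points, with 95% counting intervals shaded) against distance in bp from the annotated start (left) and end (right), for 32 free-standing snoRNA genes (top) and for protein-coding genes (bottom). No filter on unique sequence was used, and the 32 include snu32. The Pol II fold (red) is highest, at 3.44, just past the end of the snoRNA genes, where Med7 (blue) is at 1.53 and the control has 137 reads, against 189 and 185 in the bins on either side, and the Pol II values of protein-coding genes stay at or below 1.32.

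The flanks gave the same direction as the genes. The 500 bp upstream of the 39 free-standing entries gave a Pol II fold of 1.68 (1.56 to 1.81), with 13 of 39 called high (33.3%) and 4 low, where 6.99% of all genes were high and 16.2% low. The 500 bp downstream gave 1.98 (1.85 to 2.12), with 15 of 39 high (38.5%) and 1 low, against 7.23% and 16.2%. By density, the highest of the 3 windows was the gene in 24 of 38 members, the upstream window in 7 and the downstream window in 7. Neighbouring genes lie close: 26 upstream and 30 downstream windows overlap a protein-coding transcript. Of the 16 gene windows called high, 13 overlap no protein-coding transcript, but some of these lie in non-coding genes on the opposite strand: snoZ16 in SPNCRNA.2541 (Pol II fold 3.28), snR10 in SPNCRNA.7137 (2.45), sno16 in SPNCRNA.6108 (2.24), snoR69 in SPNCRNA.4432 (1.46), snR92 in SPNCRNA.1487 (0.609) and 133 bp of snu3 in SPNCRNA.2435 (4.89). With positions in all other annotated transcripts left out, 8 of the 28 gene windows left were called high. Of the 15 high downstream windows, 14 overlap one, and in 2 of these that neighbour was itself high. With positions in other protein-coding transcripts left out, the pooled upstream fold was 2.02, with 10 of the 34 windows left called high, and the downstream fold 2.03, with 8 of 29 called high.

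Some upstream values coincide with a named non-coding gene. The upstream window of snoU14 held 38 control, 525 Pol II and 39 Med7 reads, a Pol II fold of 5.17 (3.71 to 7.38), the highest of the 39, and 226 bp of it lie in mamRNA, a long non-coding RNA gene on the same strand with a Pol II fold of 6.22. Pol II was already at 123 reads against 9 control reads in the 100 bp that begin 600 bp before snoU14, was at 63 against 15 in the first 100 bp of the gene, and was at 12 against 6 in the bin that begins 600 bp after its start. Pol II there was thus highest before U14 and lower along it. The upstream window of snoZ16 held 21 control, 281 Pol II and 16 Med7 reads, a Pol II fold of 5.0 (3.21 to 8.21), and it contains 387 of the 399 bp of mrp1, the RNA gene of RNase MRP, whose own fold was 6.25. snoR69b, whose gene window was not above the control, held 35 control, 276 Pol II and 29 Med7 reads upstream, a Pol II fold of 2.95 (2.07 to 4.32), and 283 bp of that window lie in SPNCRNA.242 on the same strand. The other upstream windows called high were those of snR93 (2.68), snu3 (2.49), snR5 (2.46), sno52 (2.35), SPNCRNA.723 (2.29), snR33 (2.26), snr79 (2.24), snR94 (2.11), snR10 (2.09) and snR88 (2.05). With 250 bp flanks sno52 (1.77), SPNCRNA.723 (1.94) and snR94 (1.96) were not called, with duplicates collapsed snR10 (1.79) was not, and with coding neighbours left out SPNCRNA.723 (2.02) and snr79 (2.18) were not. The snu3 value turned to 0.892 (0.453 to 1.86) with positions in all other annotated transcripts left out. In snR93, sno52 and snR33 most of the window lies in a coding gene on the same strand that was itself high: 384 bp of rpl29 (2.35) for snR93, 377 bp of mcp60 (2.71) for sno52 and 457 bp of gfa1 (2.07) for snR33.

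Low upstream values stood beside high gene values in 1 member. snR92 held 33 control, 25 Pol II and 20 Med7 reads upstream, a Pol II fold of 0.283 (0.161 to 0.491), where its gene was at 5.80. Of that window, 336 bp lie in mag2, a DNA glycosylase gene on the same strand with a Pol II fold of 0.260. With those positions left out the fold of the rest of the window was 0.748 and not called. The upstream windows of snR95 (0.464, 0.277 to 0.785) and of the primary transcript SPNCRNA.1483 (0.479, 0.309 to 0.748) were also low, but with scaling by the median 1 kb bin they were at 0.652 and 0.673 and not called, and with 250 bp flanks at 0.748 and 0.701. Downstream, snu32 (4.74), SPNCRNA.723 (4.27), snR30 (3.97), sno52 (3.53), snoR56 (3.04), snR40 (2.94), sno16 (2.80), sno12 (2.69), snoU14 (2.59), snr79 (2.57), snR88 (2.57), SPNCRNA.1709 (2.54), snR92 (2.33), sno20 (2.23) and snR93 (2.14) were high. With coding neighbours left out snR40 (1.62) and sno20 (1.85) were not called. Other downstream windows lie wholly or almost wholly in a coding gene on the opposite strand. These are sno52 (500 bp in taf9), snr79 (500 bp in gpi12), snR30 (484 bp in pdi4), SPNCRNA.1709 (484 bp in ubp11) and SPNCRNA.723 (461 bp in sir1). Too few positions were left to check their calls in this setting.

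**Figure D3:**
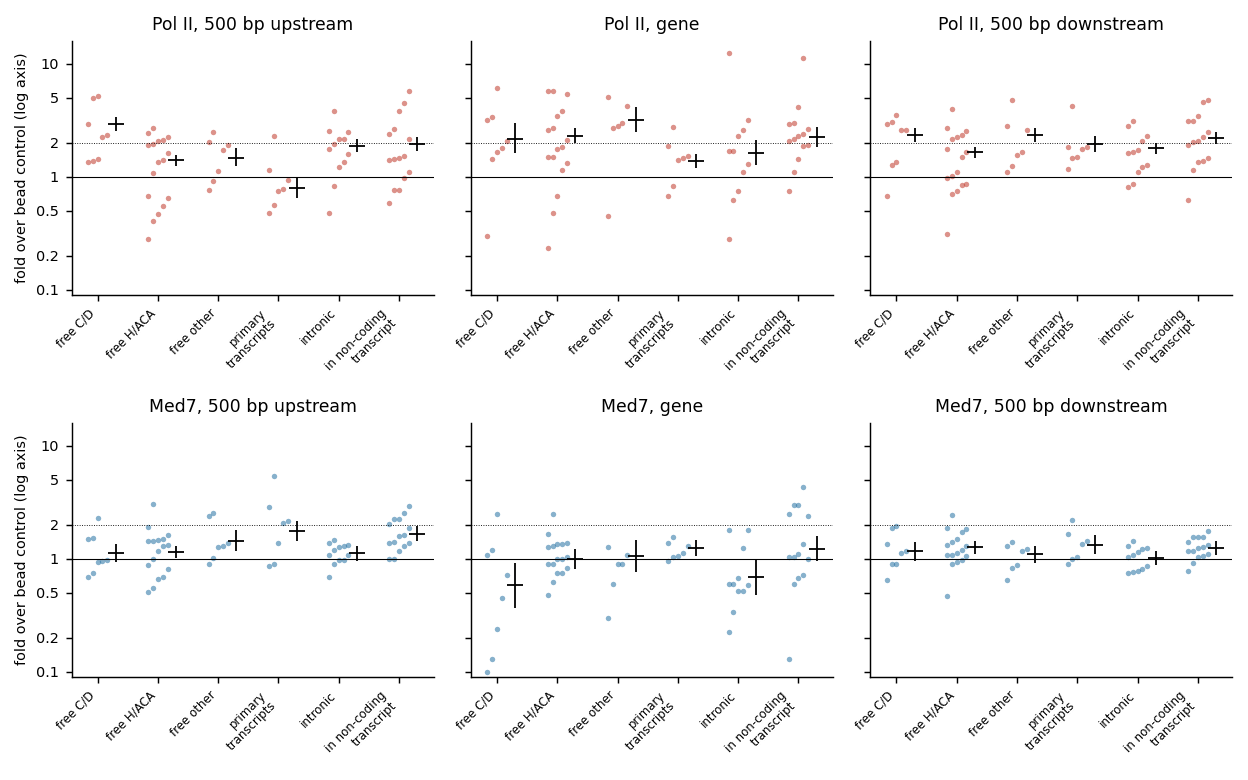
Fold over the bead control (log axes) for each snoRNA gene in the upstream, gene and downstream windows, for Pol II (top) and Med7 (bottom), by group; "free other" are the free-standing genes without a family. Points are genes, a value of 0 is drawn at 0.1, windows with no control read are not drawn, and black bars are pooled folds with 95% counting intervals. The primary transcripts are the only one of the 6 groups with a pooled upstream Pol II fold under 1 (0.799), and they have the highest pooled upstream Med7 fold (1.76). Protein-coding genes, which are not drawn, had 0.872 for Pol II and 1.39 for Med7 upstream.

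The 7 primary transcripts, which are the long precursors and not the mature snoRNAs, differed from the other free-standing entries in where their reads lay. Their pooled Pol II fold was 0.799 (0.651 to 0.983) upstream, 1.39 (1.21 to 1.60) over the transcript and 1.94 (1.65 to 2.28) downstream, while the other 32 entries gave 1.84 (1.70 to 1.99), 2.49 (2.21 to 2.81) and 1.99 (1.85 to 2.14). The upstream value of the 7 is not unusual among genes. Upstream, the pooled Pol II fold was 0.872 in protein-coding genes and 0.998 in all genes. The median upstream fold was 0.774 in the 7 and 0.770 in all genes. SPNCRNA.1394, the precursor of snR3, held 29 control, 212 Pol II and 42 Med7 reads, a Pol II fold of 2.73 (1.85 to 4.18), and was the only 1 of the 7 called high over the transcript. SPNCRNA.1650, the precursor of snoR68, gave 0.824 (0.572 to 1.21), and SPNCRNA.1483, the precursor of snoZ30, gave 0.675 (0.491 to 0.937). The mature part of snoR68 held 0 control, 19 Pol II and 5 Med7 reads. Against a floor of 3 control reads in that window its Pol II value was 2.37-fold higher than the control. That figure leaves out the counting error of the 19 Pol II reads. The high call was lost with reads placed 75 bp inward in place of 72 bp (3.55, 0.857 to 31.5). It was also lost in a 500 bp window (1.54), and in both settings control reads gave a fold. Upstream the order of the libraries turned: the Med7 fold of the 7 was 1.76 (1.43 to 2.17), with 4 of 7 called high. Over all genes 11.4% of upstream windows were high for Med7, and over protein-coding genes 18.2%, with a pooled fold of 1.39. Of the 4, SPNCRNA.1394, SPNCRNA.7474 and SPNCRNA.901 each lost the call under another setting, as given below.

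The snoZ locus carries 5 snoRNAs, snoZ8, snoZ7, snoZ5, snoZ4 and snoZ3 in this order, in a single non-coding transcript of 1901 bp (chrI:526641-528541, plus strand). Outside the 5 snoRNAs the transcript held 111 control, 732 Pol II and 114 Med7 reads, a Pol II fold of 2.47 (2.02 to 3.04). Of the snoRNAs, snoZ7 held 3, 90 and 10 reads, a Pol II fold of 11.2 (3.72 to 55.4). snoZ4 (7, 55 and 8 reads, fold 2.94), snoZ5 (9, 64 and 11 reads, fold 2.66) and snoZ8 (7, 43 and 1 reads, fold 2.30) were high as well. However, snoZ8 was not called with duplicates collapsed (2.44) or with reads placed 75 bp inward in place of 72 bp (2.24). snoZ3 held 10, 51 and 8 reads, a fold of 1.91 (0.957 to 4.21), which was not called. In 100-bp bins the locus held 29 Pol II reads just before the transcript start and 55 to 90 in each bin from the start to 1399 bp. The 5 bins from there to the annotated end held 11, 6, 6, 8 and 17, against 3 to 13 control reads. Scaled to the library totals, Pol II was below the control in 3 of these 5 bins and above it in the bins at 1400 bp (6.52 against 4.76 RPM) and 1800 bp (10.1 against 6.34 RPM). The drop at 1400 bp lay before the annotated end and after the last of the 5 snoRNAs, which ends at base 1073. The flanking windows of the 5 overlap one another and their high values are therefore not separate.

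SPNCRNA.723 (primary transcript, 868 bp) carries snR41, snR70 and snR51b. Its Pol II reads increased along the locus, from 13 in the first 100 bp to 30 in the bin at 800 bp and 63 in the bin at 1300 bp, past the annotated end, where SPNCRNA.2531 on the same strand has a Pol II fold of 4.54 and sir1, a sulfite reductase gene on the opposite strand, one of 3.73. snR70 held 3 control, 33 Pol II and 10 Med7 reads, a Pol II fold of 4.11 (1.29 to 21.0), and was called high. snR41 (3, 19 and 8 reads, fold 2.37, 0.697 to 12.5) and snR51b (7, 27 and 8 reads, fold 1.44, 0.613 to 3.92) were not. Med7 held 10 or 11 reads in each of the 4 bins before the start, where the control held 0 to 3, and its highest bin was that at 800 bp, with 23 reads against 7 control reads.

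**Figure D4:**
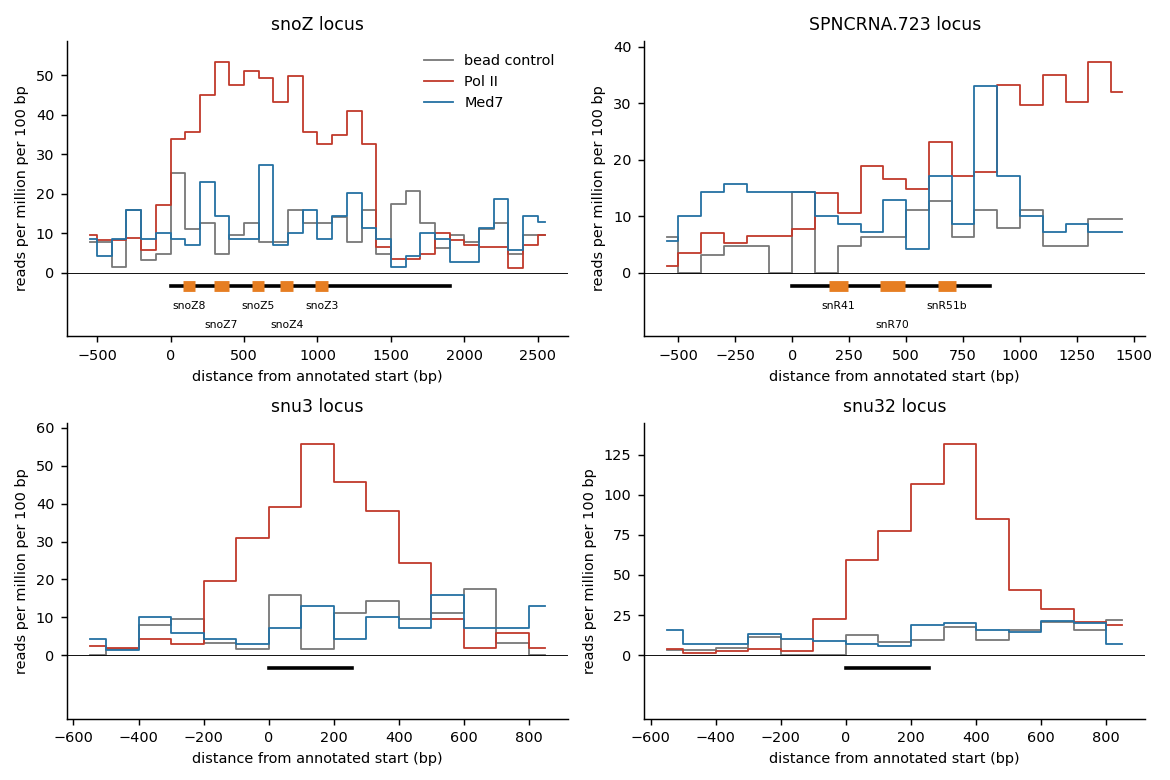
RPM in 100-bp bins against distance in bp from the annotated start for the bead control (grey), Pol II (red) and Med7 (blue) at the snoZ, SPNCRNA.723, snu3 and snu32 loci. Black bars under each plot are the annotated transcripts and orange boxes the snoRNAs within them. Pol II ends before the annotated end of snoZ and keeps rising past the end of SPNCRNA.723, and at snu3 it begins before the annotated start.

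The 12 intronic snoRNAs gave a pooled Pol II fold of 1.64 (1.28 to 2.12) over the gene, with 5 of 12 called high and 1 low, and the 15 in non-coding transcripts gave 2.24 (1.82 to 2.78) with 7 of 15 high. For all 27 the fold was 1.98 (1.69 to 2.33), with 12 high (44.4%) and 1 low, where 6.04% of all genes were high and 15.8% low. Across the intronic members the Pol II fold had no peak at the snoRNA: from 500 bp before the start to 599 bp after it, the 100-bp bins lay between 1.44 and 2.22. The highest fold from the start, 2.56, lay from 600 to 699 bp, where the control held 53 reads. Pol II reads themselves were highest at the snoRNA, where control reads were also many. They were 407 in the first 100 bp (82 control reads) and 426 in the last 100 bp before the end (94 control reads). Of the 12 host genes, 5 were high outside the snoRNA: cpc2, which encodes the ribosomal protein RACK1 (3.12, 2.52 to 3.89), rlp7, for ribosome biogenesis (2.95, 2.34 to 3.75), the kinetochore gene fta3 (2.20, 1.66 to 2.98), gua1, for guanine nucleotide synthesis (2.18, 1.80 to 2.65), and the ribosomal protein gene rpl701 (2.08, 1.68 to 2.60). The intronic guides of these hosts were snoU24b in cpc2 (8 control, 68 Pol II and 3 Med7 reads, Pol II fold 3.18), snoR39a in rlp7 (8, 28 and 11 reads, 1.31), snoR47 in fta3 (7, 43 and 4 reads, 2.30), snoR54 in gua1 (6, 42 and 4 reads, 2.62) and snoR39b in rpl701 (14, 41 and 9 reads, 1.10). Of these 5 guides, snoU24b, snoR47 and snoR54 were called high and the other 2 were not; with duplicates collapsed snoR54 (2.29) and snoR47 (2.03) were not called.

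snoR38, in an intron of the elongation factor gene SPAC29A4.02C, held 0 control, 22 Pol II and 3 Med7 reads. Against a floor of 3 control reads in that window its Pol II value was 2.74-fold higher than the control. That figure leaves out the counting error of the 22 Pol II reads. Its host was at 1.86 (1.50 to 2.31). snoU18, in a 3′ UTR intron of the oxidoreductin gene ero11, held 1, 33 and 2 reads, a Pol II fold of 12.3 (2.07 to 502), where the host was at 1.02 (0.815 to 1.29). In a 500 bp window the fold around snoU18 was 1.94 and not called. The candidate snoRNA SPNCRNA.498 in ipa1, an RNA processing gene, was low, with 12, 9 and 9 reads and a Pol II fold of 0.280 (0.104 to 0.725). Its host, at 0.602 (0.484 to 0.749), lay below the control but was not called low, and with scaling by the median 1 kb bin the member was at 0.394 and not called either, nor was it in a 500 bp window (0.567). The other intronic members, snR191 in the ribosome export GTPase gene nog2 (0.748), snoR58 in the purine synthesis gene ade4 (0.623), snoU24 in the SAGA gene spt20 (1.68) and snoZ15 in the prefoldin gene pfd1 (1.68), had intervals that included 1. Of the remaining members in non-coding transcripts, snR3 in SPNCRNA.1394 was high (10, 80 and 11 reads, 2.99, 1.55 to 6.48), while snR91 in SPNCRNA.901 (2.15), snoZ30 in SPNCRNA.1483 (2.06), snR97 in SPNCRNA.617 (1.87), snR98 in SPNCRNA.814 (1.10) and snR46 in SPNCRNA.7474 (0.748) were not called.

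**Figure D5:**
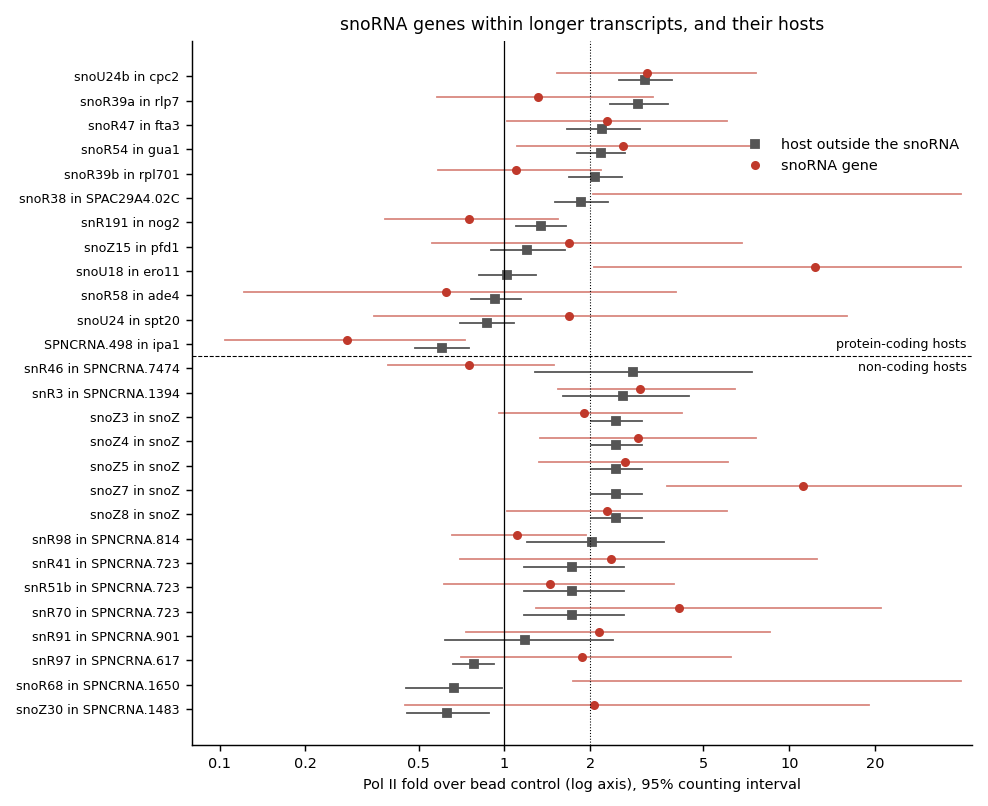
Pol II fold over the bead control (log axis, 95% counting intervals drawn no higher than 40) for each snoRNA within a longer transcript (red) and for its host outside the snoRNA (grey squares), with protein-coding hosts above the dashed line and non-coding hosts below it. snoR38 and snoR68 had no control read and show an interval only. The intervals of snoU18, snoZ7, snoR38 and snoR68 lie above the host's value, those of snR46 and snR98 lie below it, and those of the other 21 include it.

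Med7 was above the control in both flanks of the free-standing entries, by less than Pol II over the genes. Upstream of the 39 free-standing entries the libraries held 925 control, 4158 Pol II and 1311 Med7 reads, and the Med7 fold was 1.28 (1.18 to 1.40). The rule called 8 of 39 high (20.5%) and 0 low. Over all genes 11.4% of upstream windows were high for Med7, and over protein-coding genes 18.2%, with a pooled fold of 1.39. Of the 8, 4 are primary transcripts, and without these 7 entries 4 of 32 were high (12.5%) with a fold of 1.20 (1.09 to 1.32). Within the free-standing entries the Med7 fold was higher upstream than over the gene in 28 of 38. Downstream the fold was 1.22 (1.13 to 1.32), with 2 of 39 high and 1 low, against 9.23% and 2.47% of all genes, and without the primary transcripts it was 1.20 (1.09 to 1.31), the same as upstream.

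Individual upstream Med7 values were highest at SPNCRNA.723, with 8 control, 49 Pol II and 48 Med7 reads and a Med7 fold of 5.44 (2.55 to 13.3). snR30 held 13, 66 and 44 reads, a Med7 fold of 3.07 (1.62 to 6.21). SPNCRNA.901 held 19, 38 and 60 reads, a Med7 fold of 2.86 (1.68 to 5.08), and the window of snR91, which it carries, is nearly the same (2.97). In SPNCRNA.901 Med7 exceeded the control and Pol II did not, with a Pol II fold of 0.748. snoR02 (18 control and 51 Med7 reads, 2.57), snu32 (12 and 32 reads, 2.42), snoR69 (16 and 41 reads, 2.32), SPNCRNA.7474 (13 and 31 reads, 2.16) and SPNCRNA.1394 (18 and 41 reads, 2.06) were the other free-standing entries called high; with duplicates collapsed snu32 (1.81) and SPNCRNA.1394 (1.77) were not, and with 250 bp flanks snoR69 (2.46) and SPNCRNA.7474 (1.41) were not. With coding neighbours left out SPNCRNA.901 (2.54) was not called. Within longer transcripts, snR41 (2.55), snR3 (2.24), snR46 (2.24) and snR70 (2.04) were high beside snR91. Their windows share 341 (snR41), 437 (snR3), 313 (snR46), 115 (snR70) and 492 (snR91) of 500 bp with the window of their primary transcript and so repeat in part the calls of those transcripts given above. None of the 12 intronic members was high upstream, where 11.4% of all genes were, but these windows lie in part or whole inside the host transcript. In the 500 bp upstream of the 12 hosts themselves, 4 were high for Med7, where 18.2% of protein-coding genes were. They were SPAC29A4.02C (2.55), cpc2 (2.54), nog2 (2.32) and pfd1 (2.14). The lowest upstream values were those of snR93 (0.510, 0.269 to 0.936), snR92 (0.549, 0.299 to 0.986), snR96 (0.662), snR95 (0.687) and snoZ16 (0.690), none of which was called low.

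Over the gene, where 2.94% of all genes were high for Med7, snR97, an H/ACA guide in the non-coding transcript SPNCRNA.617, held 5 control, 25 Pol II and 24 Med7 reads, a Med7 fold of 4.35 (1.63 to 14.6), and it was the only 1 of 65 members called high. In a 500 bp window its fold was 1.38 and not called. Downstream, where 9.23% of all genes were high and 2.47% low, sno12 (25 control and 68 Med7 reads, 2.46, 1.54 to 4.07) and SPNCRNA.1650 (20 and 49 reads, 2.22, 1.30 to 3.94) were high, and snR90 (31 and 16 reads, 0.468, 0.239 to 0.882) was low; SPNCRNA.1650 was not called with duplicates collapsed (1.88), nor snR90 with 250 bp flanks (0.755).

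The promoters of the free-standing genes were searched for 3 sets of letters from 250 bp before the start to 50 bp after it, on both strands. HomolD is a promoter element best known from fission yeast ribosomal protein genes, where it can stand in place of a TATA box, and its core was searched as CAGTCAC. It occurred in 12 of the 32 promoters without the primary transcripts (37.5%), in 4.71% of protein-coding promoters and in 3.25% of all promoters of the same length. TATAAA occurred in 59.4% of the 32, 48.1% of protein-coding and 45.3% of all promoters. HomolE, a second such element, occurred in 1 of the 32, sno20, and in 1.25% of protein-coding promoters. The 12 with CAGTCAC were snR40, snu3, snR88, snoR02, snR30, snR90, snoR56, snoR69, snR42, sno20, snoR61 and snu32, and among the primary transcripts SPNCRNA.723 and SPNCRNA.7474 held it too. Of these 14, 7 hold it within 70 bp of the annotated start, 5 of them among the 12, and in the others it begins between -236 and -125. The others include snu3, at -181, but the start of snu32 aligns 122 bp before the annotated snu3 start. The positions in snu3 (-181) and snu32 (-59) are thus not in the same register and do not show a different placement. A match is a description of the letters and not a measured binding site.

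The promoters of sno20 (chrII:2410940-2411239, plus strand), snR30 (chrI:3394625-3394924, plus strand) and snu32 (chrII:3959037-3959336, minus strand) are shown because CAGTCAC and TATAAA both stand within 70 bp of the start in them. Capitals mark the matches to HomolD, TATAAA and HomolE, where a match on the minus strand reads as its reverse complement (GTGACTG for HomolD). In sno20 HomolE begins at base -66, CAGTCAC at -48 and TATAAA at -34 from the start. In snR30 CAGTCAC begins at -70 and TATAAA at -32, and in snu32 the HomolD match, on the minus strand, begins at -59 and TATAAA at -33.
sno20 promoter: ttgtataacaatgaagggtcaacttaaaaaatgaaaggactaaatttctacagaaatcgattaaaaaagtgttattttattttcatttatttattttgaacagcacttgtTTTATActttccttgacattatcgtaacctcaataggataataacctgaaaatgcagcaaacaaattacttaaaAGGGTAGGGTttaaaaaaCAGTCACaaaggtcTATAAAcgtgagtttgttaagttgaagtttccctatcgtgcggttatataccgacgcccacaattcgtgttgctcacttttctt
snR30 promoter: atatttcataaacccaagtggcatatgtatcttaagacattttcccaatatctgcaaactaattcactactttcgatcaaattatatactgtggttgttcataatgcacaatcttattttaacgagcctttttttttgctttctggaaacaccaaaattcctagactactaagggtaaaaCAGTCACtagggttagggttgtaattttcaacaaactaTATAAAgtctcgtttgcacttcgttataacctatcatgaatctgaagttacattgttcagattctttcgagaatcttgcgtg
snu32 promoter: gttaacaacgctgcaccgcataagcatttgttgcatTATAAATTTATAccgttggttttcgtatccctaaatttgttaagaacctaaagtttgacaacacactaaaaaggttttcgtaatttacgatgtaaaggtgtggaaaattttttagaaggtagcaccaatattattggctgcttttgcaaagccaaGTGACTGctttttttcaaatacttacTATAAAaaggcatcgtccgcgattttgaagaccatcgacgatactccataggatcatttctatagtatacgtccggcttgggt

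The 32 genes were then split by these letters, a split made after their values were known and given as a description. Over the gene, those with CAGTCAC gave a pooled Pol II fold of 3.01 (2.53 to 3.61), with 7 of 11 high, and those without gave 2.05 (1.74 to 2.42), with 8 of 20 high. Over all genes 6.04% were high, and over protein-coding genes 47.1% of those with the letters and 4.91% of those without. Upstream, Med7 gave 1.60 (1.36 to 1.89) in the 12 with the letters, of which 4 were high, and 1.03 (0.922 to 1.16) in the 20 without, of which 0 were high, where 11.4% of all genes were. The 4 are snR30, snoR02, snoR69 and snu32. Other windows went the opposite way: Pol II upstream gave 1.59 (1.38 to 1.85) with the letters and 1.94 (1.77 to 2.13) without, and Med7 downstream gave 1.06 (0.920 to 1.22) with and 1.30 (1.15 to 1.46) without. Downstream, Pol II gave 2.46 (2.20 to 2.75) with the letters and 1.64 (1.49 to 1.82) without. In protein-coding genes the letters went with more Pol II over the gene, 1.84 (1.81 to 1.87) against 0.987 (0.984 to 0.991), but not with a different upstream Med7 fold, 1.40 (1.35 to 1.45) against 1.39 (1.38 to 1.40).

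Other classes of non-coding genes frame these values. The 6 genes with the biotype snRNA gave a pooled Pol II fold of 4.16 (3.12 to 5.65) over the gene and 2.92 (2.52 to 3.40) downstream, above the free-standing snoRNA genes. tRNA genes, which RNA polymerase III transcribes, gave 0.263 (0.215 to 0.322) over the 25 of 171 genes whose sequence was unique enough. The pooled interval of the free-standing snoRNA genes was 1.82 to 2.19. These intervals cover counting error only and not the spread among the genes of a class, so they do not separate the classes. Single free-standing genes ran from 0.234 to 6.11. Of the 6 snRNA genes, 4 were high over the gene and 5 lay above 1, where 6.04% of all genes were high.

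A list of 20 protein genes that act with snoRNAs was set beside the members. For Pol II over the gene, 2 of 20 were high and 0 low, where 6.82% of protein-coding genes were high, and the median fold was 0.828, close to the 0.733 of protein-coding genes. The 2 are fib1, which encodes fibrillarin (70 control, 396 Pol II reads, 2.12, 1.64 to 2.77), and cbf5, for the pseudouridine synthase (91 control, 519 Pol II reads, 2.13, 1.70 to 2.69). In the core proteins Nop56 (1.34), Nop58 (1.16), Snu13 (1.68), Gar1 (1.11), Nhp2 (1.19) and Nop10 (1.56) the genes had point folds above 1 but were not called. The rest of the list had point folds under 1, except seb1, a gene of 3′ end formation. It held 167 control and 735 Pol II reads, a fold of 1.65 (1.39 to 1.96) that was not called. The 5 genes for snoRNP assembly and a U3 protein had a median of 0.693. The 7 for snoRNA 3′ end formation, trimming and cap had one of 0.767, and 0 genes of either set were high or low. For Med7 upstream, 10 of 20 were high, where 18.2% of protein-coding genes were, with a median fold of 2.02 against 1.41. Among them were nop56 (7 control and 35 Med7 reads, 4.53, 1.98 to 12.1), nhp2 (3.52, 1.66 to 8.34), the assembly helicase gene rvb1 (3.25, 1.68 to 6.76), the cap methylase gene tgs1 (3.05, 1.81 to 5.40), nop10 (2.79), fib1 (2.62) and cbf5 (2.05). The exonuclease gene dhp1 had 1 control and 14 Med7 reads, a ratio of 12.7 with an interval of 1.93 to 536.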

How the data were processed

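The files the authors deposited give the chromosome, first base, last base and strand of each aligned read of a library, with no normalization; fold and RPM were computed here. Per the submitters' processing notes Bowtie 0.12.7 was used, and the genome build is not given in the sources used here. Placed on ASM294v3 with 1-based starts, 0 of 627480, 1673957 and 692999 nuclear reads of 45 bases in the control, Pol II and Med7 libraries began at a repeated 45-base sequence, and with starts moved by 1 base 147, 306 and 151 did. The reads were therefore taken as uniquely placed on this build.

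The tools were scipy 1.17.1, pandas 2.3.3, numpy 2.4.6 and matplotlib 3.10.9 under Python 3.11.15. Reads were placed 72 bp inward of their 5′ ends, from a fragment length of 145 bp in each library, whose strand cross-correlation was 0.0654 for Pol II, 0.00478 for Med7 and 0.0034 for the control, so that the last 2 rest on a weak signal. Files held 678947, 1829877 and 917064 reads. Duplicates made up 12.9% (control), 17.0% (Pol II) and 16.4% (Med7) of nuclear reads and were kept. Scaling used nuclear reads outside the ribosomal DNA ends of chromosome III. A window was used when 90% of its positions start a unique 45-base sequence, with no filter on reads; medians used a pseudocount of 0.5 reads; pooled folds count each position once. Family was taken from the annotation, or from TGATGA within the first 30 bases and CTGA within the last 30, or ACA at the 3′ end. snu32 was aligned locally to the snu3 locus with 300 bp on either side. Simulated counts with known folds were used to test the rule. The members, lists, motifs and windows were chosen with earlier results of these data known. Members past the rule, the 5 highest and lowest by Pol II over the gene and Med7 upstream with at least 5 control reads, all members in longer transcripts, and U3, U14 and U17 were named. Alternatives were duplicates collapsed, other scalings, reads placed 75 bp inward in place of 72 bp (the 75 bp move), a minimum of 20 reads, neighbours' positions left out, the 2 members with most reads left out, and other window sizes.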

Additional observations from a re-analysis of the deposited data

Results flagged for a closer look

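The share of reads on the mitochondrial chromosome, which enters none of the comparisons, was 23.8% in the Med7 library and 6.84% in the bead control.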

How the results depend on the processing

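No paired analysis was possible because each group has 1 library, and no replicate could be left out. The pooled folds and counts of free-standing and nested members held their direction and moved by less than the counting interval, or under 1.5 times for counts, with duplicates collapsed, all nuclear reads as the scale, a 75 bp move or at least 20 reads per window. The 75 bp move differs little from the main placement at 72 bp. All nuclear reads as the scale changed log2 folds by only 0.0026 (Pol II) and -0.0017 (Med7). Both settings could thus hardly change the pooled values. Scaling by the median 1 kb bin raised the Pol II folds to 2.36 upstream, 2.80 over the gene, 2.78 downstream and 2.78 over nested genes, with 25 members high over the gene and 25 downstream; over all genes high and low gene calls went from 718 and 1873 to 1316 and 406. With positions in all other annotated transcripts left out, and windows under 50 bp dropped, Pol II was 1.81 upstream and 2.29 downstream and Med7 1.63 and 1.43, with 8 high for Pol II over the gene, 8 downstream and 5 for Med7 downstream; the upstream Pol II fold of snu3 reversed to 0.892. Without the 2 members with most ChIP reads, Pol II was 1.45 upstream and 1.79 downstream, and Med7 had 1 high downstream and 0 over nested genes. With 250 bp flanks and a centred 500 bp gene window, Pol II was 2.04 upstream, 2.51 over the gene and 2.59 downstream, Med7 1.45 upstream, with 2 high over the gene and 6 downstream. The last 2 settings, added after seeing the data, were these. With protein-coding neighbours left out, Pol II was 2.02 upstream with 8 high downstream, and Med7 1.51 upstream and 1.41 downstream with 6 high. Without the 7 primary transcripts, Pol II was 1.84 upstream and 2.49 over the gene, Med7 0.943 over the gene, with 4 high upstream and 1 downstream. The cause was not tested. Of 77 member calls, 12 were lost with duplicates collapsed, 15 with the other window sizes, 5 with median-bin scaling and 2 with the 75 bp move. Of the calls whose windows could still be used, 9 were lost and 44 kept with protein-coding neighbours left out, and 6 were lost, 1 reversed and 36 kept with all other transcripts left out. Depth limits single members, whose gene windows held a median of 8 control reads.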
